A study of Mus musculus with 35 samples.

Results

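The genes described here are the potassium channel subunits of the mouse amygdala, taken as all protein-coding genes in the count files whose GENCODE symbol starts with Kcn, without the Kcnip genes, Kcnj10, Kcnj13, Kcne2 and Kcnk9. The rule gave 86 genes of 21819 protein-coding genes and 52636 genes in all. It names symbols only and no measured value, but it was set with earlier results of these data known. Counts of members therefore do not describe all genes with a Kcn symbol. By symbol, 40 were voltage-gated pore-forming subunits, 13 inward rectifiers, 13 two-pore channels, 8 calcium- and sodium-activated channels and 12 auxiliary or other subunits. RNA was sequenced from cells cut out of an anterior and a posterior portion of the amygdala by laser capture microscopy. The 35 libraries came from 19 female mice. There were 16 anterior and 19 posterior libraries, and 16 mice had a library of each.

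The mice were C57BL/6J, an inbred strain, or B6D2F1N, a first-generation hybrid of C57BL/6 and DBA/2 mice. They were kept in standard housing or in enriched housing, where a playground was open for 1 h per day from postnatal day 77. In the anterior portion there were 4 standard and 2 enriched C57BL/6J libraries and 5 standard and 5 enriched B6D2F1N libraries. In the posterior portion there were 4 and 4 C57BL/6J libraries and 5 and 6 B6D2F1N libraries. Every mouse, also in standard housing, had its food restricted, was trained on a touchscreen from postnatal day 70 for 37 to 90 days and took a cognitive judgement bias test over 5 days, so no untrained control exists, and cages of standard mice were moved daily as a mock treatment. The portions carry the names in the labels, although the bregma coordinates in the study's methods run in the opposite order. If the names were exchanged, every sign between portions would reverse.

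Potassium channels let potassium leave the cell and so set the resting potential, end the action potential and time the next one. Voltage-gated channels are tetramers that open on depolarization, inward rectifiers and two-pore channels act near rest, and calcium-activated channels turn calcium entry into hyperpolarization. Auxiliary subunits change how the pores open or where they are placed. In principal neurons of the amygdala such channels set firing frequency and adaptation.

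Total counts per library ranged from 16938534 to 27352623, of which the 86 genes together took 0.259 to 0.467%. Values are CPM, read counts scaled to a common library total, with totals adjusted by trimmed mean of M values (TMM), and levels are compared between genes only as CPM per kb of exon. Pan-neuronal markers (Snap25, Syt1, Rbfox3 and Stmn2) summed to 5251 to 10320 CPM in anterior libraries and 3024 to 6382 CPM in posterior libraries. Choroid plexus markers, which mark tissue outside the amygdala, summed to 10.6 to 945 CPM in anterior libraries and 136 to 14370 CPM in the posterior portion. The basolateral marker Rspo2 ranged from 33.1 to 310 CPM in the anterior and from 0.0427 to 54.2 CPM in the posterior portion, where it was thus close to 0 in part of the libraries. Both libraries of B6D2F1N standard mouse 1 had no count of Xist, the RNA that silences an X chromosome in females.

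Across all 35 libraries, 14 of the 86 genes had a mean of 100 CPM or more, 46 had 10 or more, 23 had 1 to 10 and 17 had less than 1. Reads were found in every library for 60 genes. Kcne1, Kcnj1 and Kcnk16 had 0 counts in all libraries, where 3 counts in a library, the limit that a count of 0 allows, would be 0.109 to 0.173 CPM. Kcnk18 had 1 count and Kcna7 had 4 in all.

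The highest level per kb of exon belonged to the two-pore channel Kcnk1 (TWIK-1), with a mean of 69.8 CPM per kb (156 ± 62.0 CPM, SD, n = 35). In its class Kcnk2 (TREK-1) and Kcnk3 (TASK-1), leak channels that set the resting potential, followed far below at 5.26 and 4.99 CPM per kb. Among inward rectifiers Kcnj9 (GIRK3), opened by G protein-coupled receptors, had 51.3 CPM per kb, Kcnj16 had 25.4 and Kcnj3 (GIRK1) had 24.1. The antisense gene Gm26794 lies across part of Kcnj3, where 31.1% of exon bases are shared, and the reads of both cannot be told apart.

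The voltage-gated class took most of the reads, with a median sum of 1857 CPM per library. Its highest members per kb were 2 silent subunits, which form no channel alone and modify others: Kcnv1 at 35.0 CPM per kb and Kcnf1 at 34.5. Of the Kv4 channels, A-type channels that open at subthreshold voltages and delay firing, Kcnd2 had 28.2, Kcnd3 had 12.1 and Kcnd1 had 1.75 CPM per kb. Of the Kv1 channels of axons, Kcna6 had 20.4, Kcna1 had 19.8 and Kcna4 had 9.17 CPM per kb. The Kv3 channels, which allow fast repolarization, gave 14.4 for Kcnc2, 9.13 for Kcnc1 and 8.74 for Kcnc4. Kcnb2, a delayed rectifier of the soma, had 2.29 CPM per kb. The M-current subunits Kcnq3 and Kcnq5, which damp repetitive firing, had 8.73 and 8.17 CPM per kb. In the Kcnh family Kcnh1, Kcnh3 and Kcnh7 had 8.49, 6.68 and 5.08. The remaining silent subunits stood at 18.0 for Kcng1, 1.37 for Kcng2, 0.482 for Kcng4, 6.38 for Kcns2, 6.15 for Kcns1, 2.37 for Kcns3 and 0.00616 CPM per kb for Kcnv2.

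Kcnma1, the pore of the large-conductance BK channel, had the highest CPM of all 86 genes (319 ± 138, SD, n = 35) and, over its long exons, 18.8 CPM per kb. The sodium-activated channels Kcnt1 and Kcnt2 followed at 6.93 and 6.10 CPM per kb. Among auxiliary subunits Kcnab2 and Kcnab1, cytoplasmic partners of Kv1 channels, had 15.7 and 6.75, and the BK partner Kcnmb2 had 4.91 CPM per kb.

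**Figure D1:**
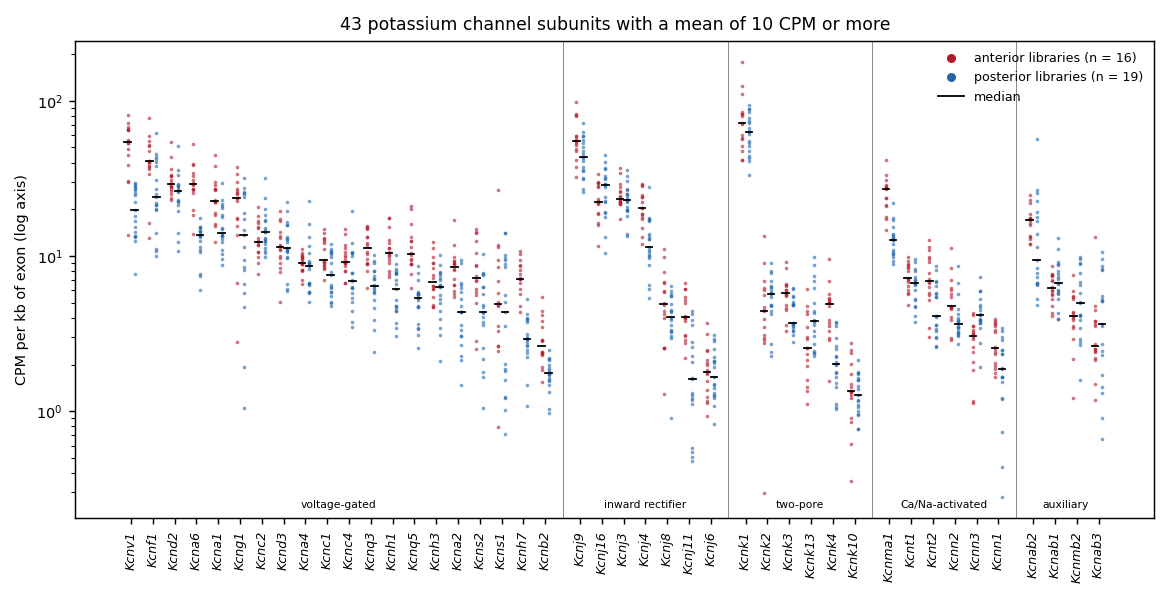
Levels of 43 potassium channel subunits with a mean of 10 CPM or more, in CPM per kb of exon on a log axis, by class. Points are the 16 anterior and 19 posterior libraries and black bars are medians. Kcnk1 stands highest, and the medians of Kcnv1, Kcna6 and Kcnma1 lie lower in the posterior libraries.

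The comparison of portions asked whether both parts of the amygdala differ in their transcripts, with each mouse as its own control. In the fit of both strains (16 mice, edgeR quasi-likelihood fit, p-values adjusted by Benjamini-Hochberg) 21 of 81 members tested were differentially expressed, 19 lower and 2 higher in the posterior portion. Of all 29437 genes tested 8.6% passed the threshold, 4.69% lower and 3.91% higher in the posterior portion. The median log2 fold change of the members was -0.24, against 0.12 for all genes tested. The lower members were 14 of 39 voltage-gated subunits, 2 of 12 inward rectifiers, 1 of 11 two-pore channels and 2 of 8 calcium- and sodium-activated channels. The higher members were Kcng2 and Kcnn3, and 0 of 11 auxiliary subunits were called (by DESeq2 the auxiliary Kcnmb3 was). Over all 81 members, 36 (44.4%) had an unadjusted p under 0.05, against 19.9% of all genes tested. All genes with at least 10 counts in total were tested, so members and all genes were not matched by expression level.

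The neuronal content of the libraries moved with this comparison. All 4 pan-neuronal markers fell in the posterior portion, by 0.55 (Rbfox3) to 0.97 (Syt1) on the log2 scale, and so did Slc17a7 (-1.27), Neurod6 (-1.92) and Tbr1 (-2.32) of the 6 excitatory neuron markers. Of 4 basolateral amygdala markers 3 fell, and the median of the list was -1.60, against -0.70 for the pan-neuronal markers. Slc17a7 and Neurod6 are in both the basolateral and the excitatory list, so these lists are not separate. Slc17a6 rose (1.46), as did 6 of 6 choroid plexus and 6 of 6 ependymal markers. Of 7 astrocyte markers 4 rose and 1 fell, and 1 of 5 meningeal fibroblast markers rose. In the inhibitory neuron list 2 of 7 fell, as did 2 of 8 microglia, 2 of 5 mural and 1 of 6 endothelial markers. By edgeR 0 of 10 oligodendrocyte and 0 of 7 striatal-type neuron markers passed. When the mean log2 level of the pan-neuronal markers was added to the fit as a term, an alternative chosen after seeing the data, 0 of 81 members passed the threshold (5 had an unadjusted p under 0.05), and 11 of all 29437 genes did. All 4 markers in this term fell between portions themselves, so the fit cannot separate their level from portion. In these bulk libraries fewer cells of a type and less RNA per cell cannot be told apart.

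**Figure D2:**
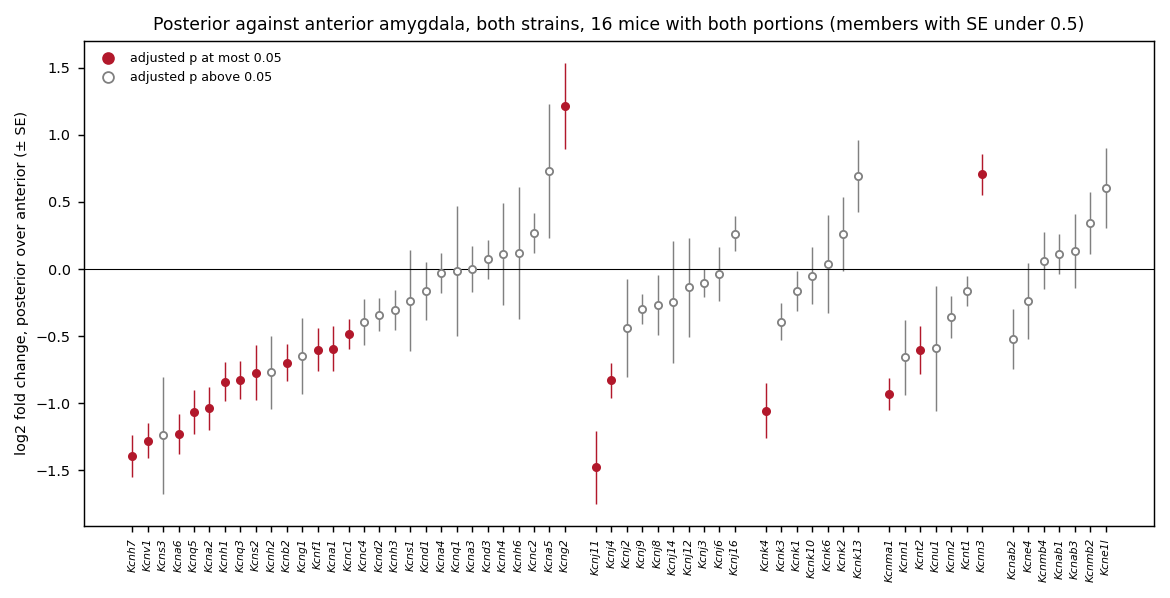
Log2 fold change, posterior over anterior portion, with its standard error, for 60 members with a standard error under 0.5, by class from left to right (voltage-gated, inward rectifier, two-pore, calcium- and sodium-activated, auxiliary). Filled points passed the threshold; most lie below 0, with Kcng2 and Kcnn3 above it.

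The sequence before the start of transcription is shown for Kcnh7, Kcna6 and Kcnma1, the falling members with the smallest p-values among those with an entry, and for Kcnn3, which rose, so that members moving in opposite directions can be read side by side. The RefSeq promoter table (GRCm38.p6) held 62 of the 86 genes. Each line gives the 250 bases before the start, 5′ to 3′ on the gene's own strand, with GC boxes (GGGCGG on either strand) in capitals.
Kcnh7 (minus strand, chr2:63184288-63184537): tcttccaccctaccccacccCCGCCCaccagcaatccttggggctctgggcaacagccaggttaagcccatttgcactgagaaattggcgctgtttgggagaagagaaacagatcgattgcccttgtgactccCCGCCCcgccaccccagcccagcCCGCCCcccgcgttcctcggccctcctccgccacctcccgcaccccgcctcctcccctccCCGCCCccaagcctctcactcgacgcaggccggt
Kcna6 (minus strand, chr6:126740675-126740924): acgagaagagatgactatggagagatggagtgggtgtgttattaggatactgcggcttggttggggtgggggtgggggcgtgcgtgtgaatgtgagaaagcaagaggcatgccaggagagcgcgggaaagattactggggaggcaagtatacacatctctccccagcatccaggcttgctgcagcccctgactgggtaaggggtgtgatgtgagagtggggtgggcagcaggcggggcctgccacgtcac
Kcnma1 (minus strand, chr14:24004206-24004455): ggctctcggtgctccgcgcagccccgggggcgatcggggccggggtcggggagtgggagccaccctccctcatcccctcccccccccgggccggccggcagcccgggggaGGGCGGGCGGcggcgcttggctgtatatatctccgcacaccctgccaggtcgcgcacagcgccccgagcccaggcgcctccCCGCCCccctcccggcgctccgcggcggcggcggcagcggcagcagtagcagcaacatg
Kcnn3 (plus strand, chr3:89519914-89520163): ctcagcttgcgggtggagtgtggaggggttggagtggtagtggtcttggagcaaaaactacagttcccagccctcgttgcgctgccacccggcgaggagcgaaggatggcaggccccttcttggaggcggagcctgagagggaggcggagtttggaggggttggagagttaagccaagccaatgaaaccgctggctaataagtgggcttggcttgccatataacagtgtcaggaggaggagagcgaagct
Kcnh7 held 4 GC boxes and Kcnma1 held 3, the first pair of them overlapping, whereas Kcna6 and Kcnn3 held none. A GC box was present in 29 of the 62 members' windows (46.8%) and in 6 of the 11 of the members that fell, against 32.7% of all 32851 promoters in the table. A TATA box (TATAAA on either strand) was present in 1 of 62 (1.6%) against 12.4% of all. GC content had a median of 60.6% in the members' windows and 52.4% in all promoters. Each member's window was the entry nearest its main annotated start, whereas every entry of the table served as comparison, so the shares are not like for like. These matches describe letters and were not tested against the change between portions.

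Among silent subunits, Kcnv1 had the smallest p of all members. Its lowest, median and highest values were 62.2, 250.4 and 373 CPM in anterior libraries and 35.1, 108 and 135 CPM in the posterior libraries of the 16 mice. It was lower in the posterior portion in 16 of 16 mice, and 15 anterior libraries lay above every posterior one. The exception was B6D2F1N standard mouse 3, with 62.2 against 57.4 CPM. The log2 fold change was -1.28 (SE 0.13, adjusted p = 3.528e-07). Kcns2 and Kcnf1, which modify Kv2 channels, fell less, by 0.77 (SE 0.20, adjusted p = 0.0154, 12 of 16 mice) and 0.60 (SE 0.16, adjusted p = 0.0179, 13 of 16 mice) on the log2 scale. Kcng2, of the same kind, rose by 1.22 on the log2 scale (SE 0.32, adjusted p = 0.0150) from a low level. It had 0.549, 1.77 and 7.84 CPM in anterior libraries and 2.21, 5.14 and 9.22 CPM in the posterior portion and was higher in 13 of 16 mice. Of its exon bases 9.1% are shared with an antisense gene.

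Kcnh7, an Erg-type channel that slows repetitive firing, ranged from 66.6 through a median of 109 to 163 CPM in the anterior and from 16.6 through 43.4 to 80.4 CPM in the posterior portion. In 15 of 16 posterior libraries it lay below every anterior one, B6D2F1N standard mouse 5 being the exception at 80.4 CPM. The log2 fold change was -1.40 (SE 0.16, adjusted p = 7.614e-07). Kcnh1, an ether-à-go-go channel, fell by 0.84 on the log2 scale (SE 0.14, adjusted p = 0.000235, 14 of 16 mice).

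The Kv1 genes Kcna6, Kcna2 and Kcna1 fell. Kcna6 had 82.6, 172 and 313 CPM in anterior libraries and 35.9, 80.9 and 105 CPM in the posterior portion, was lower in 16 of 16 mice and overlapped through 1 anterior library, that of B6D2F1N enriched mouse 1. Its log2 fold change was -1.23 (SE 0.15, adjusted p = 2.796e-06). An antisense gene, Gm26673, shares 39.6% of its exon bases, so its reads are uncertain. Kcna2 had a log2 fold change of -1.04 (SE 0.16, adjusted p = 6.189e-05), from 64.8, 102 and 202 to 17.6, 47.3 and 112 CPM. Kcna1 changed less, by -0.59 (SE 0.17, adjusted p = 0.0228), and was lower in 12 of 16 mice. Its call was lost without B6D2F1N standard mouse 1 and without the 3 mice with the most choroid plexus RNA.

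The M-current genes Kcnq5 and Kcnq3 fell. Kcnq5 went from 47.6, 79.1 and 162 CPM to 23.8, 43.4 and 66.3 CPM (log2 fold change -1.06, SE 0.16, adjusted p = 6.952e-05) and was lower in 16 of 16 mice. Kcnq3 was also lower in 16 of 16 (-0.83, SE 0.14, adjusted p = 0.000236). The Kv2 gene Kcnb2 fell by 0.70 (SE 0.14, adjusted p = 0.00102) on the log2 scale. The Kv3 gene Kcnc1 fell by 0.48 (SE 0.11, adjusted p = 0.00544). None of the 3 Kv4 genes passed the threshold by edgeR. There Kcnd2 had a log2 fold change of -0.34 (SE 0.12, adjusted p = 0.0839), whereas DESeq2 called Kcnd2.

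Kcnma1 had 250.2, 461 and 703 CPM in anterior libraries and 151, 218 and 372 CPM in the posterior portion. It was lower in 16 of 16 mice, and 12 posterior libraries lay below every anterior one. Its log2 fold change was -0.93 (SE 0.12, adjusted p = 5.505e-06). The sodium-activated Kcnt2 fell by 0.60 on the log2 scale (SE 0.18, adjusted p = 0.0318, 13 of 16 mice), and this call was lost under the same exclusions as that of Kcna1. Kcnn3 (SK3), a small-conductance channel that shapes the afterhyperpolarization, moved the other way. It had 11.8, 32.0 and 45.0 CPM in anterior libraries and 28.6, 42.4 and 76.3 CPM in the posterior portion and was higher in 13 of 16 mice, although the groups overlapped widely. Its log2 fold change was 0.71 (SE 0.16, adjusted p = 0.00339).

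Of the inward rectifiers Kcnj4 (Kir2.3), a strong rectifier, fell from 25.8, 44.0 and 62.2 CPM to 11.6, 23.1 and 60.0 CPM (log2 fold change -0.83, SE 0.13, adjusted p = 0.000110). It was lower in 15 of 16 mice. Kcnj11 (Kir6.2), the pore of the ATP-sensitive channel, had the largest fall of the called members, from 8.11, 14.8 and 24.6 CPM to 1.76, 5.37 and 15.5 CPM (-1.48, SE 0.27, adjusted p = 0.000510), lower in 15 of 16 mice. The abundant G protein-gated genes did not pass, with log2 fold changes of -0.30 (SE 0.11, adjusted p = 0.120) for Kcnj9 and -0.11 (SE 0.10, adjusted p = 0.629) for Kcnj3. Kcnj16, a partner subunit of glial rectifiers, had 0.26 (SE 0.13, adjusted p = 0.270). Of the two-pore channels Kcnk4 (TRAAK), opened by stretch and lipids, fell by 1.06 on the log2 scale (SE 0.21, adjusted p = 0.000945, 13 of 16 mice). The gene Catsperz shares 13.1% of its exon bases. Kcnk1, the highest member per kb, had a log2 fold change of -0.16 (SE 0.15, adjusted p = 0.606).

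**Figure D3:**
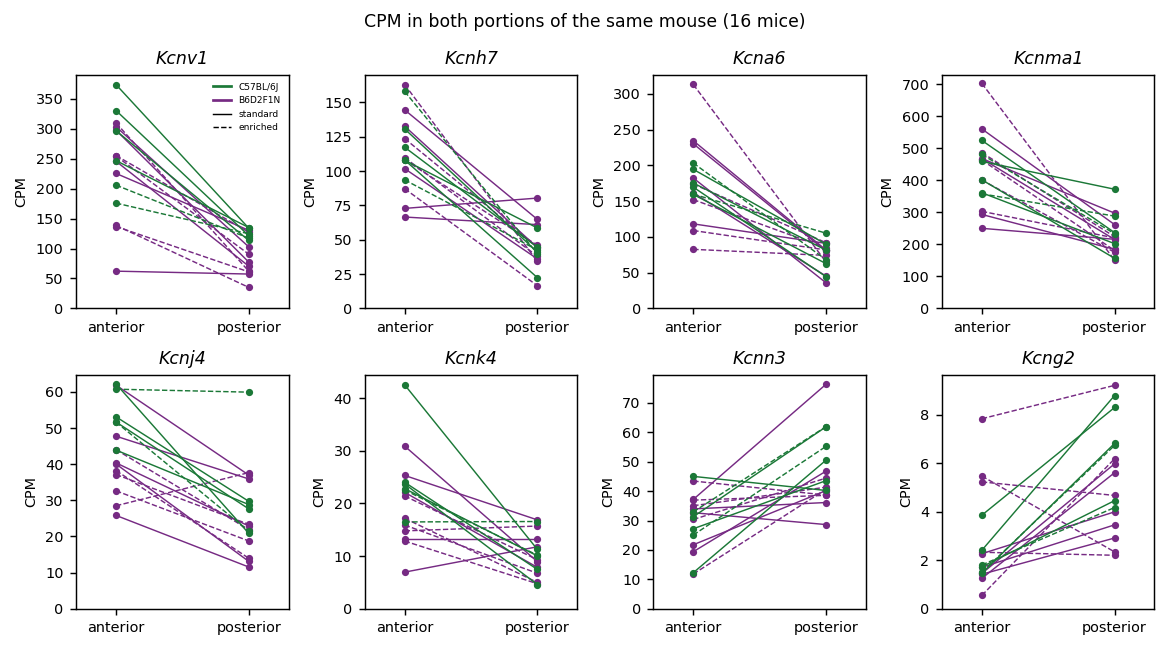
CPM of 8 called members in the anterior and posterior portion, with a line for each of the 16 mice, green for C57BL/6J and purple for B6D2F1N, solid for standard and dashed for enriched housing. Every line falls for Kcnv1, Kcna6 and Kcnma1, and 13 of 16 rise for Kcnn3 and Kcng2.

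In C57BL/6J alone (6 mice) 14 of 79 members were called, 12 lower and 2 higher, beside 3.64% of all genes (2.1% lower, 1.54% higher). In B6D2F1N alone (10 mice) 13 of 81 were called, 13 lower and 0 higher, beside 4% of all genes (2.37% lower, 1.62% higher). By DESeq2 in B6D2F1N, 1 member was higher, Kcnn4. In both strains 10 genes were called, among them Kcna2, Kcna6, Kcnh1, Kcnh7, Kcnj4, Kcnma1, Kcnq3, Kcnq5 and Kcnv1, which is 71.4% of the C57BL/6J list and 76.9% of the B6D2F1N list. Both lists come from separate mice. The shared part of the lists of all called genes is not given here, so these shares cannot be read as particular to the members.

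Kcnj11, Kcnk4, Kcnn3 and Kcng2 passed in C57BL/6J and not in B6D2F1N. Their log2 fold changes were -1.85 (SE 0.35), -1.38 (SE 0.28), 0.93 (SE 0.23) and 1.65 (SE 0.41) in C57BL/6J, and -1.26 (SE 0.35), -0.87 (SE 0.27), 0.55 (SE 0.19) and 0.90 (SE 0.46) in B6D2F1N. Kcnb2, Kcnf1 and Kcns2 passed in B6D2F1N only, with -0.73 (SE 0.17), -0.77 (SE 0.21) and -1.14 (SE 0.25), against -0.67 (SE 0.22), -0.35 (SE 0.20) and -0.21 (SE 0.23) in C57BL/6J. The call of Kcnf1 in B6D2F1N (adjusted p = 0.0429) passed in only 5 of 17 alternatives, and those of Kcnb2 and Kcns2 in 14 and 15. In C57BL/6J the calls of Kcnn3 and Kcng2 passed in 5 and 6 of 12 alternatives, and those of Kcnj11 and Kcnk4 in 11 each. The difference between strains was tested by an interaction term, for which 0 of 81 members and 0% of all genes passed by edgeR (2 members, 2.47%, with an unadjusted p under 0.05 against 2.96% of all genes, 0 called by DESeq2). The smallest p-values were those of Kcns2, with a difference of -0.93 (SE 0.37, adjusted p = 1), and of the inward rectifier Kcnj12, with 1.51 (SE 0.71, adjusted p = 1). Likewise 0 of 81 members passed for portion by housing (5, 6.17%, with an unadjusted p under 0.05 against 3.29% of all genes, 0 by DESeq2, 0% of all genes called). There Kcnc2 had -0.81 (SE 0.25) and Kcnn4 4.45 (SE 1.77), both with an adjusted p of 1.

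The C57BL/6J count fell to 8 without standard mouse 1 and to 9 without standard mouse 4 or enriched mouse 3, and both higher calls were lost in each of these fits. In B6D2F1N it fell to 6 without enriched mice 1 and 3 and standard mouse 4, whose posterior libraries held the most choroid plexus RNA, a choice made after seeing the data. Those 6 were Kcna6, Kcnh7, Kcnj4, Kcnma1, Kcns2 and Kcnv1. With both strains together 20 members were called without these 3 mice. The counts of all genes in that fit and in those leaving out 1 mouse are not given here. Whether members lost calls more often than other genes was therefore not tested.

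Of 24 genes that build complexes with these channels and are no members, 6 of 23 tested were called between portions in both strains. The Kv4 partner Kcnip2 rose by 0.48 on the log2 scale (SE 0.14, adjusted p = 0.0218), whereas Kcnip3 fell by 0.51 (SE 0.13, adjusted p = 0.0114). The Kv2 partner Amigo1 fell by 0.66 (SE 0.11, adjusted p = 0.000148), beside its pore Kcnb2. The Kv1 partners Adam23, Cntn2 and Lgi1 fell by 0.61, 0.53 and 0.36 on the log2 scale (adjusted p = 7.59e-05, 0.0384 and 0.0465). Abcc8, which joins Kcnj11 in the ATP-sensitive channel, had -0.55 (SE 0.31, adjusted p = 0.350).

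The comparison of strains asked which transcripts differ by genetic background in each housing and portion. No member passed by edgeR in the 4 comparisons. In standard housing 0 of 78 members were called in the anterior (0 by DESeq2, 0.37% of all genes called) and 0 of 79 in the posterior portion (1 by DESeq2, 0.373%). An unadjusted p under 0.05 was found for 7 members (8.97%) against 9% of all genes in the anterior and for 13 (16.5%) against 10.3% in the posterior portion. In enriched housing 0 of 77 were called in the anterior (0 by DESeq2, 0.0639%) and 0 of 78 in the posterior portion (1 by DESeq2, 0.394%). Here 4 members (5.19%) against 4.33% of all genes and 6 (7.69%) against 9.11% had an unadjusted p under 0.05.

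The smallest p-values of standard anterior libraries were those of Kcnf1 and Kcns1. Kcnf1 had 193, 248, 263 and 369.5 CPM in C57BL/6J and 78.0, 162, 175, 190.3 and 196 CPM in B6D2F1N (log2 fold change, B6D2F1N over C57BL/6J, -0.74, SE 0.25, adjusted p = 0.489). The ranges overlapped by 1 C57BL/6J library, at 193 CPM. Kcns1 had -1.62 (SE 0.60, adjusted p = 0.537), and the single call made without B6D2F1N standard mouse 1 was of this gene. In the standard posterior portion Kcnk2 had 11.3, 11.8, 13.4 and 28.3 CPM in C57BL/6J and 23.9, 31.5, 34.4, 39.7 and 44.6 CPM in B6D2F1N (1.12, SE 0.30, adjusted p = 0.244). Only C57BL/6J standard mouse 4 reached into the B6D2F1N range. Without it, and by DESeq2, Kcnk2 passed. Of the exon bases of Kcnk2 12.2% are shared with another gene. Kcnmb2 had -1.20 (SE 0.35, adjusted p = 0.292), with 18.2 to 29.8 CPM in C57BL/6J and 5.00 to 21.2 CPM in B6D2F1N, and passed without B6D2F1N standard mouse 1.

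In enriched housing Kcnk1 and Kcnq5 came first in the anterior portion, with only 2 C57BL/6J libraries. Kcnk1 had 93.2 and 127 CPM in C57BL/6J and 134 to 248 CPM in B6D2F1N (0.78, SE 0.29, adjusted p = 0.9999), and Kcnq5 had 68.2 and 68.3 against 78.0 to 162 CPM (0.80, SE 0.33, adjusted p = 0.9999). In the posterior portion Kcna1 had 65.3 to 140.3 CPM in C57BL/6J against 41.7 to 84.7 CPM in B6D2F1N (-0.84, SE 0.23, adjusted p = 0.238).

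The comparison of housing environments asked what the playground changed within a strain and portion. No member passed by edgeR. In C57BL/6J 0 of 77 members were called in the anterior (0 by DESeq2, 0% of all genes) and 0 of 79 in the posterior portion (3 by DESeq2, 0.0163%). An unadjusted p under 0.05 was found for 8 members (10.4%) against 6.2% of all genes and for 13 (16.5%) against 10.3%. In B6D2F1N 0 of 79 were called in the anterior (0 by DESeq2, 0%) and 0 of 80 in the posterior portion (0 by DESeq2, 0%), and 3 members (3.8%) against 6.3% of all genes and 7 (8.75%) against 6.59% had an unadjusted p under 0.05.

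In the C57BL/6J posterior portion Kcnab2 had 36.6, 40.9, 46.8 and 52.5 CPM in standard and 63.4, 99.3, 127 and 316 CPM in enriched mice, without overlap (log2 fold change, enriched over standard, 1.78, SE 0.39, adjusted p = 0.172). It passed by DESeq2, and by edgeR without enriched mouse 3. The 10 oligodendrocyte markers together were also higher in these enriched libraries, at 18670 to 29330 CPM against 8533 to 13350 CPM, and 1 of the 10 passed the threshold. The part of this in Kcnab2 was not tested. In B6D2F1N posterior libraries, where oligodendrocyte sums of 2460 to 24290 and 7157 to 16970 CPM overlapped, Kcnab2 had 36.5 to 141 CPM in standard and 26.9 to 148 CPM in enriched mice (-0.11, SE 0.47, adjusted p = 0.999).

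In the C57BL/6J anterior portion, with 4 standard and 2 enriched libraries, Kcnn4 had 0.397 to 3.09 CPM in standard mice and no count in the enriched ones, and Kcnv1 had 247 to 373 CPM against 176 and 206 CPM (-0.73, SE 0.24, adjusted p = 0.693). In the B6D2F1N anterior portion Kcnmb3 and Kcnj15 came first, both at low levels. Kcnmb3 had 0 to 3.94 CPM in standard and 0 to 0.115 CPM in enriched mice, and Kcnj15 was found in 1 of 10 libraries. In the B6D2F1N posterior portion Kcnc2 had 108, 121, 142, 169 and 225 CPM in standard and 70.5 to 131 CPM in enriched mice (-0.73, SE 0.22, adjusted p = 0.752). Kcna1 had 64.3 to 99.8 CPM against 41.7 to 84.7 CPM (-0.55, SE 0.20, adjusted p = 0.752).

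**Figure D4:**
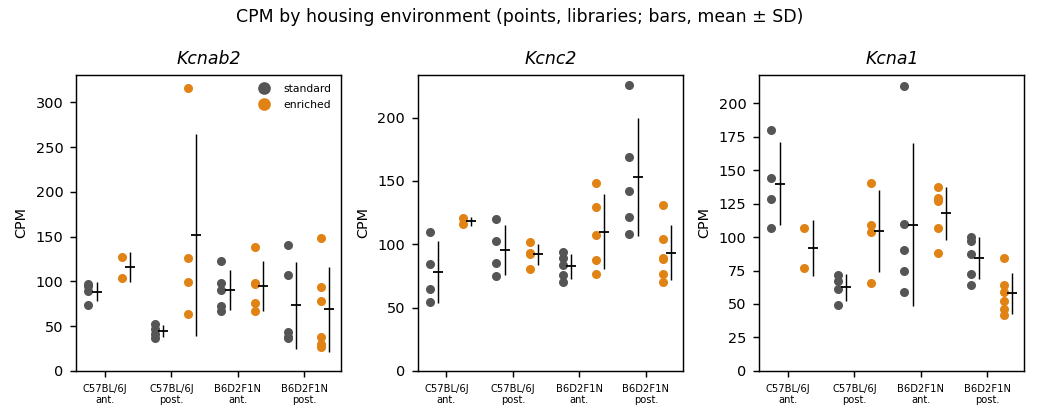
CPM of Kcnab2, Kcnc2 and Kcna1 in the 8 groups, with anterior (ant.) and posterior (post.) libraries of each strain. Grey points are standard and orange points enriched libraries, and bars give the mean and SD. In C57BL/6J posterior libraries all enriched values of Kcnab2 lie above all standard ones.

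Whether housing acted differently in both strains was tested by an interaction within each portion. No member of 80 passed in the anterior (0 by DESeq2, 0% of all genes) or the posterior portion (0 by DESeq2, 0%). An unadjusted p under 0.05 was found for 3 members (3.75%) against 5.98% of all genes and for 12 (15%) against 8.38%. In the posterior portion Kcna1 had a difference of -1.28 (SE 0.31, adjusted p = 0.491). In the anterior portion the smallest p-values were those of the small-conductance channel Kcnn2, with 1.42 (SE 0.44, adjusted p = 0.814), and Kcns1, with 2.27 (SE 0.95, adjusted p = 0.819).

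**Figure D5:**
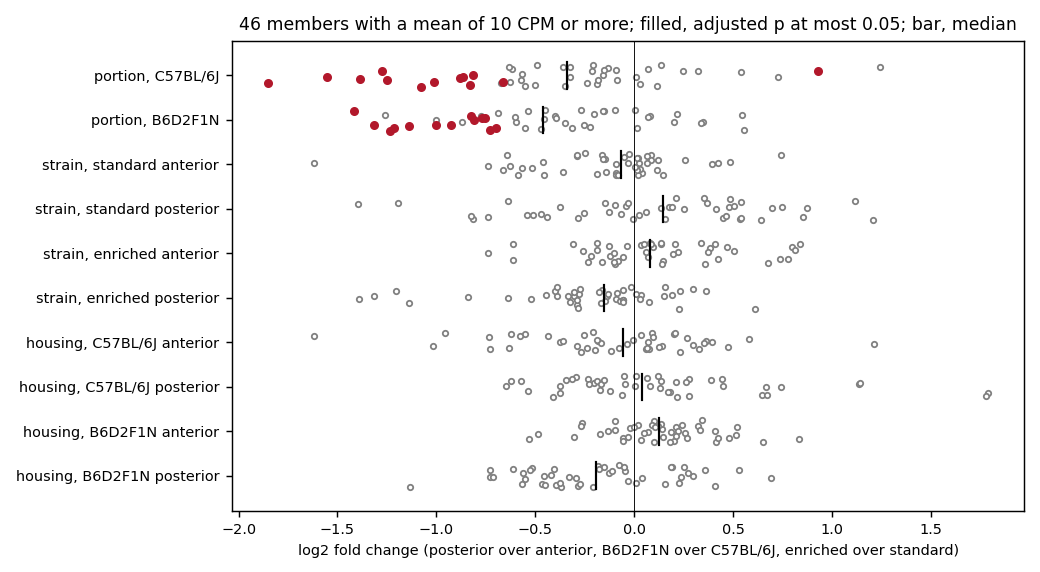
Log2 fold changes of the 46 members with a mean of 10 CPM or more in the 2 portion, 4 strain and 4 housing comparisons. Filled points passed the threshold and bars are medians. Calls appear between portions, where medians lie at -0.34 and -0.46, and in none of the other 8 comparisons.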

How the data were processed

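Sequencing reads of 72 bases from 35 laser-captured libraries of polyadenylated RNA were processed by the authors with bcl2fastq2, Trimmomatic 0.38, HISAT2 2.1.0 (GRCm38), SAMtools 1.8 and HTSeq 0.11.2. The deposited unit is the read count per Ensembl gene. The library kit does not mark strand, and the annotation release and strand setting are not given in the sources used here. The rows for reads assigned to no gene were left out of library sizes (no feature 13.68 to 26.43%, ambiguous 3.06 to 3.74%, not unique 6.23 to 10.93% of assigned and unassigned reads together). Symbols, types and exon lengths came from GENCODE M21.

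In R 4.3.3, genes with at least 10 counts over the libraries of a comparison were normalized by TMM and tested with edgeR 4.0.16 (quasi-likelihood test, 2-sided, Benjamini-Hochberg adjustment over all genes, threshold 0.05). DESeq2 1.42.0 was an alternative. SE is the log2 fold change divided by the square root of F. Portions were compared with the mouse as a block, since the labels name the same animal in both portions and the study's methods pair them. Across genes, the departures of a mouse's anterior and posterior library from the mean of their groups had a median r of 0.07 (-0.125 to 0.216, 16 mice). Between other mice of a group the median was -0.024, and its range (-0.311 to 0.285, 63 pairs) contained that of the same-mouse pairs. Strains were compared within housing and portion, and housings within strain and portion. Mice shared cages with others of their strain, and the playground was joined to whole cages. Cage was not in the fits. The p-values of strain and housing thus measure the spread between these mice, with cage-mates taken as independent, and not the spread between cages. Those of portion measure the spread of the differences within mice. The tests of some comparisons were also run on counts simulated from the means and dispersions of these data, with the outcome not reported here.

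All called members up to 30 a comparison were named, otherwise the 2 members with the smallest p, and in each class (voltage-gated by family) the 3 with the highest CPM per kb. The members, classes, marker and partner lists were chosen with earlier results of these data known. Shared exon bases come from the annotation. Values of some members are not reported here, although the counts include them. Counting limits cover counting error only.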

Additional observations from a re-analysis of the deposited data

Results flagged for a closer look

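For 30 members that were called or named for their p-values, the libraries of each of the 7 groups of 4 to 6 were checked for a library far from the rest (208 member and group combinations). The gap of the highest or lowest library to its neighbour, as a share of the group's range, passed Dixon's 95% limit in 17 (8.2%). The limit is set for about 1 in 20 with normally distributed values. A group with counts in 1 library only passes it at any level, so the share cannot be compared with that rate.

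Of the members called between portions, B6D2F1N enriched mouse 4 had 201.8 CPM of Kcna2 in the anterior portion, against 77.8 to 110.0 in the other mice. C57BL/6J enriched mouse 3 had a low Kcnc1 in the posterior portion (59.8 CPM, others 96.9 to 104). C57BL/6J standard mouse 2 had a high anterior Kcnk4 (42.5 CPM, others 22.8 to 24.0). C57BL/6J standard mouse 1 had a low posterior Kcnq5 (26.1 CPM, others 40.3 to 43.1).

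In the posterior portion B6D2F1N enriched mouse 2 stood apart in 3 members, with 209.9 CPM of Kcnk1 (others 74.1 to 115), 49.9 CPM of Kcnn2 (others 23.7 to 31.8) and 24.1 CPM of Kcns1 (others 1.92 to 4.28). C57BL/6J enriched mouse 3 had high posterior Kcnn2 (64.2 CPM, others 22.9 to 29.9) and Kcnn4 (6.39 CPM, others 0.131 to 1.08). C57BL/6J standard mouse 4 had a high posterior Kcnk2 (28.3 CPM, others 11.3 to 13.4), and B6D2F1N standard mouse 1 a high anterior Kcns1 (32.2 CPM, others 2.14 to 7.17).

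The other 6 had counts in 1 library and none in the rest of the group, so they passed the limit whatever their level. Kcnj15 had 0.0568 CPM in C57BL/6J standard mouse 1 and 0.902 CPM in B6D2F1N standard mouse 2 of the anterior portion. In the posterior portion it had 0.976 CPM in C57BL/6J standard mouse 4, 1.01 CPM in B6D2F1N standard mouse 5 and 0.328 CPM in B6D2F1N enriched mouse 6. Kcnmb3 had 0.851 CPM in the anterior library of C57BL/6J standard mouse 1.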

How the results depend on the processing

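Between portions the members called were 14 in C57BL/6J, 13 in B6D2F1N and 21 in both strains. They became 18, 18 and 28 by DESeq2, and 10, 10 and 23 without the mouse as a block, while size factors and count filters gave 14 to 16, 12 to 16 and 21 to 22. With the pan-neuronal term they became 0, 0 and 0, and Kcna2 (0.30) and Kcnq3 (0.27) in B6D2F1N and Kcna1 (0.12) in both strains then had a positive log2 fold change. The markers in this term fell with portion themselves, so the term cannot be separated from portion. No other setting reversed a named member. Without the 3 mice with the most choroid plexus RNA B6D2F1N had 6. Leaving out 1 mouse at a time gave 8 to 15 in C57BL/6J and 9 to 14 in B6D2F1N. The counts of all genes in these fits are not given here.

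In the other comparisons, where 0 members were called, DESeq2 gave 1 between strains in the standard posterior and 1 in the enriched posterior portion, and 3 between housings in the C57BL/6J posterior portion. Without a count minimum there were 2 between housings in the C57BL/6J anterior and 2 in the posterior portion. Leaving out 1 mouse gave 0 to 1 between strains in the standard anterior and in the standard posterior portion, and 0 to 2 between housings in the C57BL/6J posterior portion. Where this left 1 library in an arm, that library was assumed to vary like the rest. The cause of these shifts was not tested. Over all genes DESeq2 called 1535 against 937 in C57BL/6J and 1994 against 1110 in B6D2F1N between portions, and in the strain and housing comparisons 8 to 392 against 0 to 101. Dropping the block called 3955 against 2532 genes in both strains. Without a count minimum 57 against 15 genes were called between strains in the enriched anterior portion, and 274 against 0 and 112 against 4 between housings in the C57BL/6J anterior and posterior portions. The pan-neuronal term left 0 to 12 genes, and leaving out the 3 choroid plexus mice 396 against 1110 in B6D2F1N.

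Small numbers of mice (2 enriched C57BL/6J libraries in the anterior portion), unequal cell content of the portions and reads shared with antisense genes limit these values. Members under 1 CPM rest on low counts.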

Other observations

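Summed over each class, the levels per library were as follows, given as values with no test. Voltage-gated subunits together had 1655 to 3570 CPM in the anterior and 1121 to 2136 CPM in the posterior portion. Calcium- and sodium-activated channels had 402 to 960.1 CPM and 287 to 574 CPM. Inward rectifiers had 362 to 758 CPM and 318 to 663 CPM, and two-pore channels 171 to 522 CPM and 157 to 295 CPM. Auxiliary subunits had 149 to 278 CPM and 131 to 429 CPM, the last value set by the library of C57BL/6J enriched mouse 1, with 316 CPM of Kcnab2.

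Kcng1, a silent subunit that modifies Kv2 channels, varied widely within portions. In B6D2F1N standard posterior libraries it had 4.75, 8.66, 26.0, 42.7 and 113 CPM, and in C57BL/6J standard posterior libraries 66.0 to 144 CPM. Kcnk2 had 1.48 CPM in the anterior library of B6D2F1N enriched mouse 6, against 14.7 to 66.3 CPM in the other mice of that group.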
